A study of Mus musculus with 4 samples.

Results

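The Steap family of metalloreductases comprises *Steap1*, *Steap2*, *Steap3* and *Steap4*, and its 4 members were taken by gene name from the 23537 genes of the deposited RNA-seq table. The family was chosen by measured values, namely the RNA counts of *Steap4* in the same libraries and the study's own methylation table, which lists the *Steap4* promoter among those that lost methylation without MBD4. The difference of *Steap4* between genotypes is therefore given as a description, without a test, whereas the other members were tested within the whole table. RNA came from primary embryonic fibroblasts of the mouse (MEFs), which are connective tissue cells, grown from C57BL/6 embryos at day 12.5 post coitum. Ribosomal RNA was removed and single-end, strand-specific libraries were sequenced from 2 samples of *Mbd4*-/- cells (KO) and 2 samples of *Mbd4*+/+ cells (WT), all taken from subconfluent cells. MBD4 is a DNA glycosylase that binds methylated CpG and removes the thymine left by deamination of 5-methylcytosine. The study calls the samples of a genotype independent without giving the number of embryos or cultures behind them, so the p-values measure only how these samples vary, and that variation may be technical.

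STEAP proteins cross the membrane with a six-helix domain that binds haem, and pass electrons from NADPH inside the cell to ferric iron or cupric copper on the other side. STEAP2, STEAP3 and STEAP4 carry an N-terminal reductase domain for NADPH, which STEAP1 lacks. STEAP3 is the main ferric reductase of the transferrin cycle of red cell precursors and is also known as a p53-inducible gene, and STEAP4 is known from adipose tissue and inflammation, where it responds to TNF and IL-6 type signals.

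The libraries held 39108275 to 47567835 counts, and 15538 genes passed the filter on low counts, including all 4 members. KO libraries still held 373 and 302 counts of *Mbd4*, against 663 and 630 in WT (log2 fold change -0.99, SE 0.11). The sources used here do not say which part of the gene was deleted. *Ift122*, the gene beside it, had 7 and 3 counts in KO and 1002 and 944 in WT. With edgeR's quasi-likelihood test and Benjamini-Hochberg adjustment, 66.8% of the tested genes passed an adjusted p of 0.05, 34.3% being higher and 32.5% lower in KO cells. A member that passed the test thus did what most genes did.

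On mouse build mm9, *Steap2* (ENSMUSG00000015653, chr5:5664831-5694578) and *Steap1* (ENSMUSG00000015652, chr5:5736317-5749326) lie on the minus strand 41.7 kb apart with no annotated gene between them. *Steap4* (ENSMUSG00000012428, chr5:7960472-7982213) lies on the plus strand of the same chromosome, 2.21 Mb beyond *Steap1*. *Steap3* (ENSMUSG00000026389, chr1:122087334-122169282, minus strand) is on another chromosome. None of the 4 overlaps another annotated gene.

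The *Steap4* promoter is shown because the study lists it among the promoters with less methylation in KO cells. The study's promoters reach further upstream than the window shown here. Where methylation was lost was not examined, and the place may lie outside the window. The *Steap1* promoter is shown for comparison, as that of the family member of the same chromosome whose difference between genotypes did not pass the test. Both are the 250 bases before the annotated start, read from the mm9 genome at chr5:7960222-7960471 (plus strand) and chr5:5749327-5749576 (minus strand), 5′ to 3′, with each CpG in capitals.
Steap4: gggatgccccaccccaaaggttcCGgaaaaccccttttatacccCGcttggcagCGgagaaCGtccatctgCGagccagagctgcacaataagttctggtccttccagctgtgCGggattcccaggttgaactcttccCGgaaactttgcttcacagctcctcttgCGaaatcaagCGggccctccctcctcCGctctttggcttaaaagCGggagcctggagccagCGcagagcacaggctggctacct
Steap1: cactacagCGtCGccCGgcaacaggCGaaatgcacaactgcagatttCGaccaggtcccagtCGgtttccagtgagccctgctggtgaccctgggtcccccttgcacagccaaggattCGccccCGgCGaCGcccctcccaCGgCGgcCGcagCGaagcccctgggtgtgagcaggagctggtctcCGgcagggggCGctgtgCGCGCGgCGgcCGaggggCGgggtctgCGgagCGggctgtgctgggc

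The *Steap4* window held 12 CpG, with 58.4% G and C and a ratio of observed to expected CpG of 0.574. This is close to the middle of the genome: the median of 23387 promoters was 9 CpG with quartiles of 3 and 18, and 60.7% of them held no more than 12. The *Steap1* window was denser, with 24 CpG and 71.2% G and C, and 87.2% of promoters held no more. The windows of the other members depended on the start site taken. That of *Steap2* held 7 CpG before its most upstream start and 36 before a start shared by 2 of its 9 transcripts, a count that 97.2% of promoters did not exceed. Transcripts that start a few bases to either side of this shared start had 35 and 37 CpG. The 5 annotated *Steap3* transcripts had 2 to 14 CpG in their windows.

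Among short motifs searched on both strands, the *Steap4* window held 1 match to the STAT-type palindrome TTCCNGGAA, which was found in 0.877% of promoters (205 of 23387). The match, TTCCCGGAA, spans bases 116 to 108 upstream of the start and contains a CpG. The window also held 1 C/EBP-type match to TTGCNNAA (8.53% of promoters) and 1 match to the TATA-type motif TATAAA (10.5%), without overlap between the matches. The TATAAA match lay on the strand opposite to the gene, where the printed sequence reads TTTATA. Each gene was searched only in the window before its most upstream annotated start, so the other start sites of *Steap2* and *Steap3* were not searched. In these windows no other member held a STAT-type or a C/EBP-type match. The *Steap1* window held 1 GC box, GGGCGG (39.8% of promoters), and that of *Steap3* 2 CCAAT boxes (CCAAT, 33.7%). That of *Steap2* held 1 CCAAT box and 1 TATAAA match, which again lay on the strand opposite to the gene. These are matches of letters and were not tested as binding sites.

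*Steap4*, a ferric and cupric reductase of the plasma membrane and endosomes, was low in WT MEFs and far higher in KO MEFs. It had 98 and 108 counts in WT against 5665 and 5276 in KO. In CPM, the counts scaled by TMM to a common library depth, these were 2.19 and 2.64 in WT (2.41 ± 0.317, SD, n = 2) and 119.2 and 128.0 in KO (124 ± 6.23, SD, n = 2). Both KO libraries thus stood far above both WT libraries, and replicates of a genotype lay close together. The level was 51.3-fold higher in KO cells (95% interval 44.1 to 59.7, log2 fold change 5.68, SE 0.10). The interval and SE come from the fit that tested the other members. They take no account of the choice of the family by this difference and are given as a description only. Per kilobase of exon, *Steap4* ranked above 22.7% of the tested genes in WT and above 90.9% in KO cells. In these bulk samples, a change in the share of cells that make a message cannot be told apart from a change in the amount per cell.

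*Steap2*, a ferric and cupric reductase of the Golgi, plasma membrane and endosomes, was the only tested member to pass, and rose in KO cells. It had 13934 and 11341 counts in KO and 7981 and 8076 in WT, or 293.2 and 275.1 CPM against 178.2 and 197.1 CPM. The lower KO library stood above the higher WT library. The mean was 284.1 ± 12.7 CPM in KO and 187.7 ± 13.4 CPM in WT (SD, n = 2 each), a fold of 1.51 (95% interval 1.37 to 1.67). The log2 fold change was 0.60 (SE 0.07, edgeR adjusted p = 2.7e-06).

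*Steap1*, which binds haem but lacks the domain that takes electrons from NADPH, did not pass the test. Its counts were 1479 and 1201 in KO and 1436 and 1417 in WT. These gave 31.1 and 29.1 CPM in KO (30.1 ± 1.40, SD, n = 2) and 32.1 and 34.6 CPM in WT (33.3 ± 1.79, SD, n = 2), the values being lower in KO without overlap but only narrowly. The log2 fold change was -0.14 (SE 0.08, edgeR adjusted p = 0.120), with a 95% interval of the fold from 0.804 to 1.02. Without WT replicate 1 it was -0.20 and passed (edgeR adjusted p = 0.0443), and with scaling to library totals it was 0.0039.

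*Steap3*, the ferric reductase that works beside the transferrin receptor in endosomes, did not pass either. It had 851 and 814 counts in KO and 1008 and 825 in WT, or 17.9 and 19.7 CPM in KO (18.8 ± 1.30, SD, n = 2) against 22.5 and 20.1 CPM in WT (21.3 ± 1.67, SD, n = 2). The nearest libraries of the genotypes, at 19.7 and 20.1 CPM, almost met. The log2 fold change was -0.18 (SE 0.09, edgeR adjusted p = 0.100), and the 95% interval of the fold reached from 0.767 to 1.01. Without WT replicate 2 it was -0.29 and passed (edgeR adjusted p = 0.00744).

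KO and WT libraries did not overlap in CPM for any of the 4 members, but the same held for 82.8% of all tested genes. Of the 3 members that were tested, 1 passed, against the background of 66.8%. *Steap4* alone lay beyond a log2 fold change of 2, in the direction in which 5.79% of tested genes passed the study's limits of an adjusted p of 0.01 and that fold; since its difference chose the family, nothing is read from this.

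**Figure D1:**
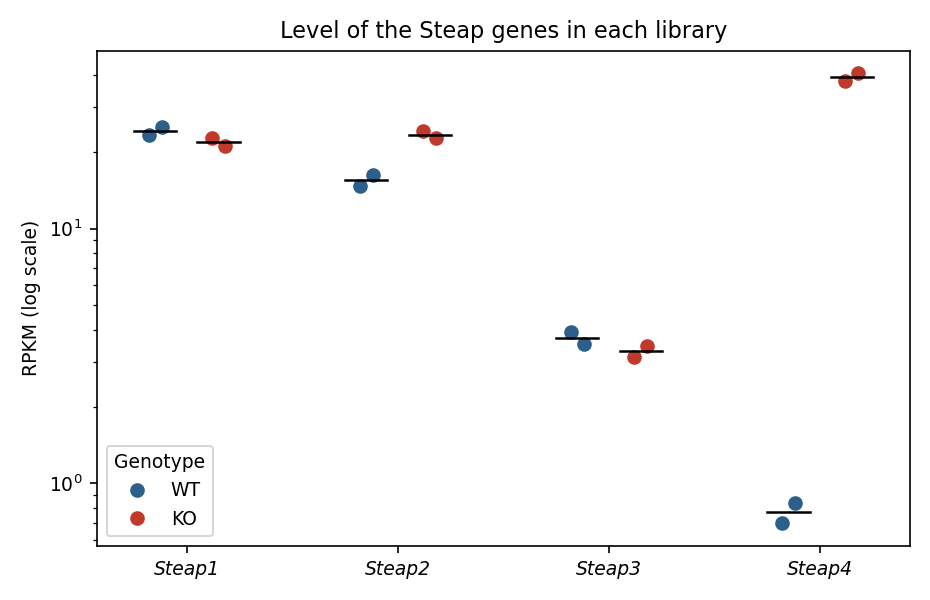
Level of each Steap gene in each library, as CPM per kilobase of exon (RPKM, log axis), with WT in blue, KO in red and the mean of each genotype as a black bar (n = 2 each). *Steap4* has the lowest level of the family in WT (0.697 and 0.840) and the highest in KO (38.0 and 40.8), while the genotypes lie close together for *Steap1* and *Steap3*.

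Levels of different members were compared per length, as RPKM over the union of annotated exons (CPM divided by kilobases). In WT cells *Steap1* was highest (24.2 ± 1.30 RPKM), followed by *Steap2* (15.5 ± 1.10), *Steap3* (3.73 ± 0.293) and *Steap4* (0.768 ± 0.101), each being SD with n = 2. The libraries of neighbours in this order did not overlap. In KO cells *Steap4* led with 39.4 ± 1.98 RPKM, followed by *Steap2* (23.4 ± 1.05) and *Steap1* (21.9 ± 1.02), with *Steap3* last (3.29 ± 0.228). The place of *Steap4* above *Steap2* depends on the length taken, 12.1 kb of exon for *Steap2* and 3.14 kb for *Steap4*. In CPM *Steap2* was higher in KO (284.1 against 124). Which *Steap2* transcripts the cells made was not tested. *Steap2* and *Steap1* differed in KO cells by little more than the SD of either, with 24.1 and 22.7 against 22.6 and 21.2 RPKM.

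The summed level of the family was 42.6 and 45.7 RPKM in the WT libraries and 87.8 and 88.0 RPKM in the KO libraries. Without *Steap4* the sums were 41.9 and 44.9 RPKM in WT and 49.9 and 47.3 RPKM in KO. *Steap4* made up 1.64% and 1.84% of the sum in WT and 43.2% and 46.3% in KO. *Steap1* supplied 54.7% and 54.9% in WT and 25.7% and 24.0% in KO. *Steap3* supplied the least in KO cells and little in WT cells, with 7.71% to 9.25% in WT and 3.57% to 3.92% in KO. *Steap2* made up 34.5% and 35.5% of the sum in WT and 27.5% and 25.7% in KO although its own level was higher in KO, since the sum was higher by more.

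**Figure D2:**
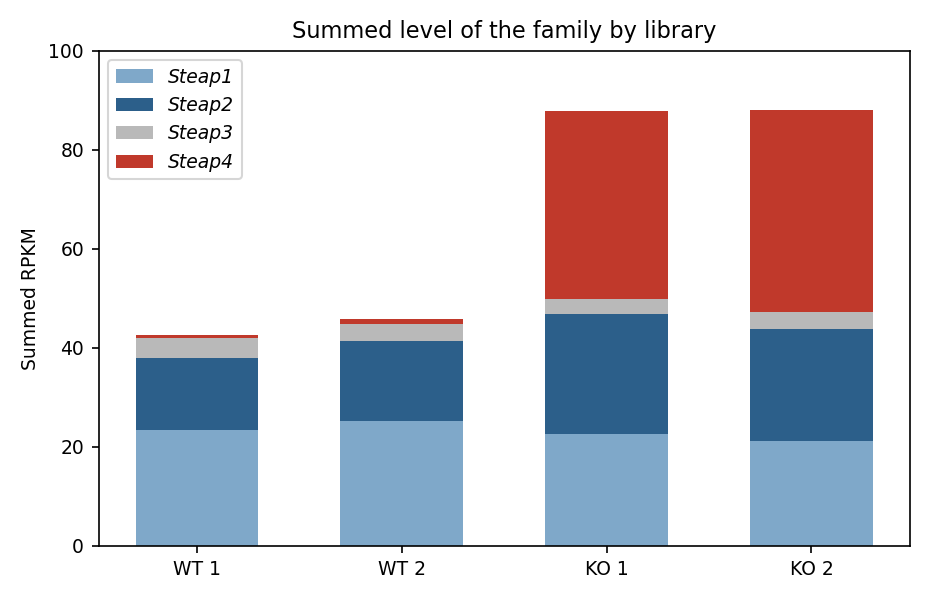
Summed RPKM of the 4 Steap genes in each library, stacked by gene. The WT libraries reach 42.6 and 45.7 and the KO libraries 87.8 and 88.0, and the red section of *Steap4* holds most of the difference.

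The adjacent genes *Steap2* and *Steap1* were also compared within each library, which does not depend on scaling between libraries. The ratio of *Steap2* to *Steap1* per kilobase was 0.630 and 0.646 in WT and 1.07 in both KO libraries. This is a 1.68-fold difference of ratios (log2 difference 0.74), with no overlap between genotypes. An exact two-sided permutation test gave p = 0.333, which is the smallest that 2 against 2 libraries allow. The ratio of *Steap4* to *Steap2*, given as a description, was 0.0496 ± 0.00299 in WT and 1.69 ± 0.160 in KO (SD, n = 2).

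**Figure D3:**
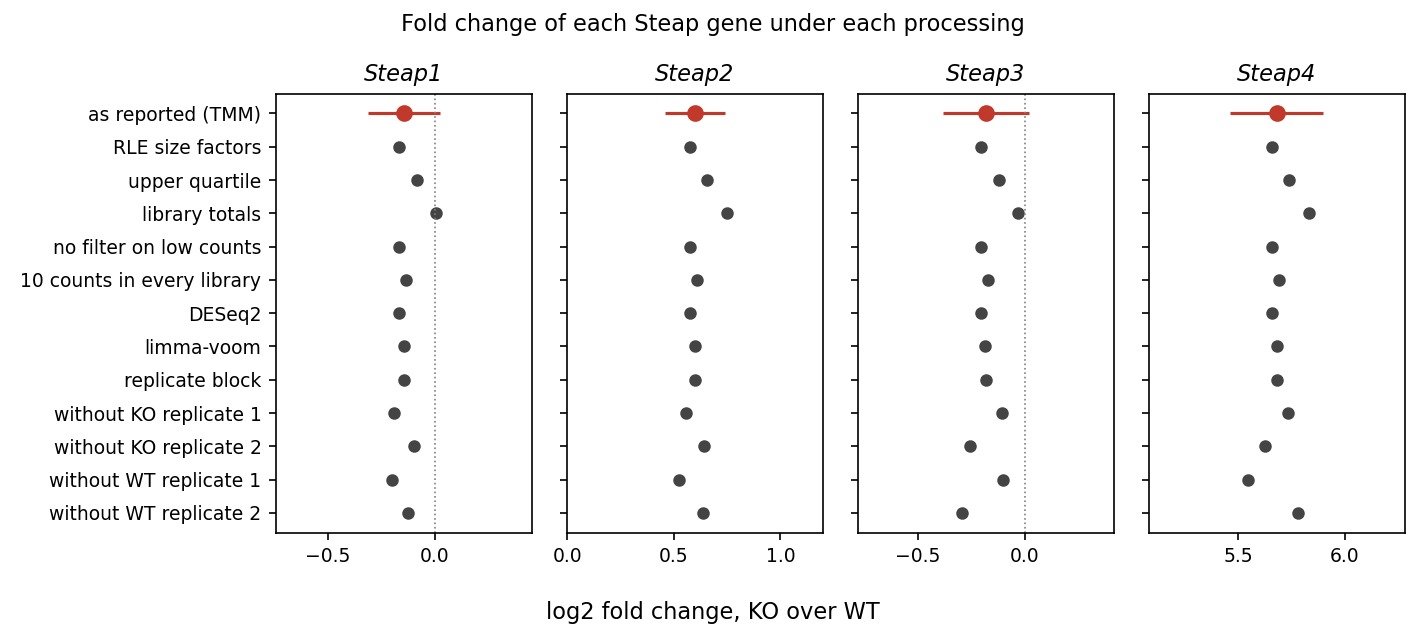
Log2 fold change (KO over WT) of each Steap gene under each processing, with the reported value and its 95% interval in red and the alternatives in black, on axes of equal width that are centred on each gene. *Steap4* stayed between 5.55 and 5.83 and *Steap2* between 0.52 and 0.75, whereas *Steap1* reached 0.0039 with library totals. The interval of *Steap4*, whose difference chose the family, is a description only.

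The other genes of metal reduction and transport were read from lists of known function, which were drawn up with results of these data already known. The counts of each list stand beside a background in which 66.8% of all tested genes passed, 34.3% higher and 32.5% lower, with a median log2 fold change of 0.024. All 6 ferric reductases of the cytochrome b561 group that the table holds were tested, and 2 rose, 1 fell and 3 did not pass, with a median of -0.07. *Cybasc3*, a lysosomal reductase and the most abundant of the list, rose from 12.9 ± 0.209 to 23.1 ± 0.544 CPM (log2 fold change 0.84, SE 0.09, edgeR adjusted p = 1.67e-06). *Cyb561d2* rose by a log2 fold change of 0.29 (SE 0.10), and *Frrs1*, a ferric reductase with a cytochrome b561 domain, fell by 1.40 on the log2 scale (SE 0.15). *Cybrd1*, the duodenal ferric reductase, had only 15 to 19 counts per library and did not pass (-0.26, SE 0.40); it was named after its value was seen. Without KO replicate 1, and likewise without KO replicate 2, 2 of the list passed in place of 3 (1 higher and 1 lower), and without WT replicate 2, 4 passed (2 higher and 2 lower). The median was -0.031 without KO replicate 1, -0.039 without WT replicate 1 and 0.0010 without WT replicate 2.

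NADPH oxidases share the haem-binding transmembrane fold with STEAP proteins but pass electrons to oxygen. Of 11 such genes in the table, 5 could be tested, of which 1 rose, 3 fell and 1 did not pass. *Cyba*, the p22phox subunit, fell from 47.3 ± 2.11 to 18.0 ± 1.33 CPM (log2 fold change -1.39, SE 0.08), and *Nox4*, the oxidase of fibroblasts and kidney, from 24.4 ± 1.58 to 14.2 ± 0.329 CPM (-0.78, SE 0.09). *Noxo1*, an organizer subunit, rose from 20 and 30 counts in WT to 158 and 124 in KO (2.43, SE 0.26).

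Among 22 tested genes of iron uptake, storage, export and regulation, 5 rose, 12 fell and 5 did not pass, with a median log2 fold change of -0.43. These are 22.7% higher and 54.5% lower, against 34.3% and 32.5% of all tested genes. With scaling to library totals the split was 8 higher and 12 lower. Of the genes for uptake, *Slc39a14*, a plasma membrane importer of iron and zinc, had 3455 and 2871 counts in KO and 12173 and 11478 in WT. It fell accordingly (log2 fold change -1.95, SE 0.06, edgeR adjusted p = 1.1e-11). The related importer *Slc39a8* went the other way, from 195 and 208 counts in WT to 992 and 777 in KO (2.08, SE 0.12).

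The receptor and the endosomal iron transporter that *Steap3* works with in the transferrin cycle fell in KO cells. *Tfrc*, the transferrin receptor, fell from 224 ± 25.8 to 108 ± 4.11 CPM (log2 fold change -1.05, SE 0.08), and *Slc11a2*, the transporter that carries reduced iron out of the endosome, from 76.5 ± 2.40 to 43.6 ± 0.457 CPM (-0.81, SE 0.07). These partners were named after their values were seen. *Lcn2*, which binds iron-loaded siderophores, fell by 1.86 on the log2 scale (SE 0.25). *Slc25a37*, which brings iron into mitochondria, fell by 1.23 (SE 0.09).

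Genes of export moved in both directions. *Slc40a1*, ferroportin, the only known cellular iron exporter, had 148 and 113 counts in WT and 1040 and 889 in KO (log2 fold change 2.84, SE 0.12, edgeR adjusted p = 2.58e-10). *Heph*, the ferroxidase that works with it, had 2 counts in each WT library and 107 and 86 in KO (5.46, SE 0.41), a value that rests on few WT counts. *Cp*, ceruloplasmin, another ferroxidase, fell from 61.2 ± 9.55 to 33.9 ± 0.195 CPM (-0.85, SE 0.09) and was named after its value was seen. The storage subunits parted: *Ftl1*, the ferritin light chain and the most abundant of the list, fell from 621 ± 13.7 to 315 ± 14.3 CPM (-0.98, SE 0.06). *Fth1*, the heavy chain, which was named after its value was seen, rose from 215 ± 3.59 to 280 ± 13.9 CPM (0.38, SE 0.06). Ferritin chains have many processed pseudogenes, between which the counting could split reads.

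Haem is the cofactor of every STEAP protein. Of 17 tested genes for its synthesis, breakdown and transport, 7 rose, 8 fell and 2 did not pass, with a median log2 fold change of 0.016 (-0.024 without WT replicate 1) and a split of 8 higher and 6 lower with library totals. The rate-limiting enzyme *Alas1* rose from 48.9 ± 0.294 to 87.4 ± 1.22 CPM (0.84, SE 0.06), and *Ppox*, a late step of synthesis, rose by 1.13 (SE 0.08). *Cpox*, the step before it, fell from 39.4 ± 0.301 to 14.2 ± 1.07 CPM (-1.48, SE 0.08). *Hmox1*, the inducible haem oxygenase, fell from 54.2 ± 4.91 to 24.0 ± 2.35 CPM (-1.18, SE 0.09). *Blvrb*, a biliverdin reductase, rose (0.92, SE 0.11), whereas *Slc48a1*, a lysosomal haem transporter, fell (-0.82, SE 0.08), as did *Abcg2*, a haem and porphyrin exporter and the most abundant of the list (-0.38, SE 0.06).

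Copper is the other substrate of STEAP2, STEAP3 and STEAP4. Of 14 tested genes of copper transport and chaperones, 4 rose, 5 fell and 5 did not pass, with a median log2 fold change of -0.069, which was -0.15 without WT replicate 1. With library totals 6 were higher and 4 lower. *Slc31a1*, the importer that takes up the reduced form of copper, had 71.4 ± 0.295 CPM in KO and 76.1 ± 1.08 CPM in WT and did not pass (-0.09, SE 0.06, edgeR adjusted p = 0.204). It was named after its value was seen. *Slc31a2* rose (0.67, SE 0.11), as did *Ccs*, the copper chaperone of superoxide dismutase (0.56, SE 0.09), and *Mt1*, a metallothionein (0.55, SE 0.11). *Atox1* and *Cox17*, chaperones for the secretory pathway and mitochondria, fell (-0.57, SE 0.07, and -0.49, SE 0.08), and so did *Sod1*, the most abundant of the list (-0.48, SE 0.06). *Sod3*, the extracellular copper and zinc superoxide dismutase, had 783 and 689 counts in WT and 0 and 8 in KO (-7.52, SE 0.34), the KO libraries differing from one another.

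**Figure D4:**
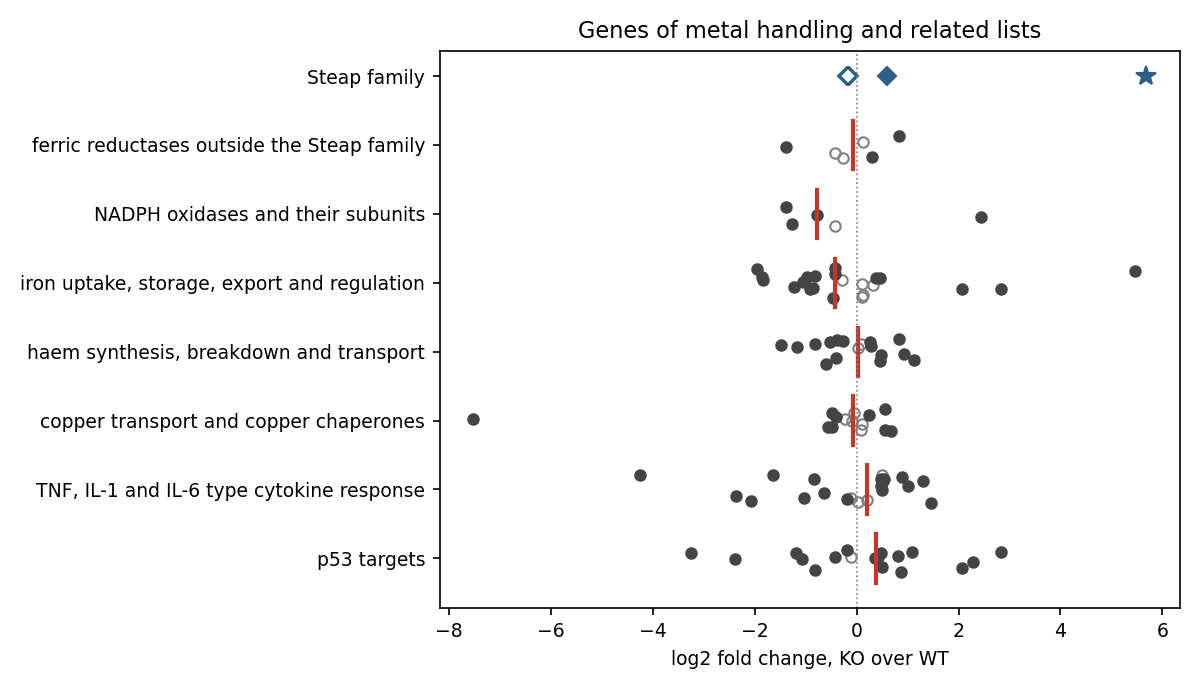
Log2 fold change (KO over WT) of each tested gene of 7 lists, as filled points where the adjusted p was under 0.05 and open points where it was not, with the list's median as a red bar. In the top row, *Steap1* and *Steap3* are open blue diamonds that nearly coincide, *Steap2* a filled one, and *Steap4*, which was not tested, a star at 5.68.

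*Steap4* is known as a TNF- and cytokine-inducible gene, and signals of this kind were read from 21 tested genes of the TNF, IL-1 and IL-6 type response. Of these, 9 rose, 8 fell and 4 did not pass, with a median log2 fold change of 0.20. The median was -0.043 without WT replicate 1 and 0.38 without WT replicate 2, so its direction rests on single libraries. Among the genes that rose, *Il6st*, the shared gp130 chain and the most abundant of the list, rose from 855 ± 122 to 1711 ± 16.4 CPM (SE of the log2 fold change 0.08), *Lifr*, the LIF receptor, by 1.29 (SE 0.10), and *Socs3*, a feedback inhibitor and STAT3 target, from 53.1 ± 5.46 to 146 ± 3.18 CPM (1.46, SE 0.07). The TNF-induced genes *Tnfaip3* and *Tnfaip2* fell, by log2 fold changes of -2.07 (SE 0.10) and -2.37 (SE 0.07). The cytokine *Lif* itself fell from 1599 and 1046 counts in WT to 82 and 61 in KO (-4.25, SE 0.18). *Tnf* had at most 1 count in any library, and *Il6* had 19 and 17 counts in KO and 9 and 21 in WT (edgeR adjusted p = 0.717); both were named after their values were seen.

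*Steap3* is known as a p53 target, and 18 other targets were tested, of which 10 rose, 7 fell and 1 did not pass (median log2 fold change 0.38, and 0.23 without KO replicate 2). *Cdkn1a*, the p21 cell cycle inhibitor, rose from 80 and 45 counts in WT to 482 and 434 in KO (2.83, SE 0.19). *Trp53inp1* rose by 2.29 (SE 0.07), *Eda2r* by 2.06 (SE 0.14) and *Ccng1*, the most abundant of the list, by 1.09 (SE 0.07). *Perp*, a desmosomal protein with a role in apoptosis, fell from 27.6 ± 0.225 to 2.89 ± 0.347 CPM (-3.25, SE 0.12), *Pmaip1* fell by 2.40 (SE 0.20), and *Sesn2* fell from 28.8 ± 4.91 to 12.6 ± 0.613 CPM. *Steap3* itself, at -0.18, did not pass.

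Of the 40 genes named by the fixed rule from these lists, 11 overlap another annotated gene, and the sources used here do not say whether reads were counted by strand. The 11 are *Cybasc3*, *Cyba*, *Noxo1*, *Heph*, *Ftl1*, *Alas1*, *Ppox*, *Slc48a1*, *Cox17*, *Slc31a2* and *Sesn2*.

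STEAP4 is a product of fat cells and macrophages, so markers of these and other cell types were read in the same libraries, and those named were picked after their values were seen. All 12 fibroblast markers were tested, with 0 higher, 9 lower and 3 not passing. Of all tested genes 34.3% were higher and 32.5% lower, and the counts of each marker list stand beside these shares. Their summed level was 22187 and 24654 CPM in WT and 13418 and 14565 CPM in KO. The matrix proteoglycans decorin and lumican were near 0 in KO cells: *Dcn* had 5 and 7 counts against 1349 and 1123, and *Lum* 0 and 1 against 142 and 131. *Col1a2* (4641 ± 308 CPM in KO) and *Vim* (2723 ± 37.4 CPM in KO) were still abundant, though lower than in WT (log2 fold changes -0.36, SE 0.08, and -0.59, SE 0.06). The 3 that did not pass were *Pdgfra* (-0.06, SE 0.09), *Pdgfrb* (0.09, SE 0.06) and *Thy1* (0.06, SE 0.08).

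Of 8 adipocyte markers in the table, 5 were tested, with 1 higher, 3 lower and 1 not passing. Those not tested were at or near 0, *Adipoq* and *Plin1* having at most 2 counts and *Cfd* at most 1 count in any library. *Cebpa*, a transcription factor of fat and myeloid cells, rose from 228 and 200 counts in WT to 1451 and 1482 in KO (log2 fold change 2.73, SE 0.11), and made up most of the list's sum in KO, which was at most 16.8 CPM in WT and 40.5 and 45.8 CPM in KO. *Pparg* (-1.57, SE 0.36), *Fabp4* (-0.85, SE 0.21) and *Retn* (-2.06, SE 0.55, at most 19 counts in any library) fell. *Lpl*, with 367 and 331 counts in KO and 243 and 293 in WT, did not pass. Of 7 macrophage and leukocyte markers, 4 were tested, with 1 higher, 2 lower and 1 not passing, and sums of 5.57 and 6.72 CPM in WT and 7.04 and 7.22 CPM in KO. *Csf1r* rose (1.74, SE 0.20), while *Ptprc*, which marks all leukocytes, had 0 and 2 counts in KO and 40 and 21 in WT, and *Emr1* at most 1 count. *Cd14* fell (-1.17, SE 0.25) and *Cd68* did not pass, with 79 and 68 counts in KO and 85 and 65 in WT. *Lyz2* had 6 and 7 counts in KO and 0 in both WT libraries, and *Itgam* at most 8 counts in any library.

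The remaining markers were low. Of 7 epithelial markers 2 were tested, and *Cdh1* rose from 10 and 9 counts to 142 and 107 (3.64, SE 0.29). *Epcam* did not pass, with 13 counts in each KO library and 12 and 18 in WT. The list sums were 0.938 to 1.37 CPM in WT and 3.06 to 3.43 CPM in KO, where *Cdh1* made up most. Among those not tested, *Krt8* (2 and 0 counts in KO, 6 and 18 in WT), *Krt18*, *Krt14* and *Cldn4* had fewer counts in KO. *Krt5* had more, with 6 and 5 counts against 0 in both WT libraries. None of 3 tested endothelial markers or of 1 tested erythroid marker passed, and of 2 tested hepatocyte markers 1 fell, *Afp*, from 25 and 24 counts to 1 and 0. The summed level of each of these last 3 lists stayed under 1.2 CPM in every library. The part of the cell types in the difference of *Steap4* was not tested.

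The 5 genes on either side of each member in the table were examined next. The 24 distinct neighbours held 15 tested genes, of which 5 rose and 6 fell (66.8% of all tested genes passed). Their log2 fold changes ran from -3.62 to 1.88. On the upstream side of *Steap4* the nearest tested neighbour was the pseudogene *Gm15459*, 2177 kb away, which was lower in KO cells (-0.52, SE 0.06). On the other side *Gm15731* fell from 49 and 44 counts in WT to 22 and 17 in KO at a distance of 55.1 kb (-1.30, SE 0.31), and overlaps *Sri* on the opposite strand. *Sri*, a calcium-binding protein, fell only slightly (-0.22, SE 0.07). *Adam22*, a catalytically inactive member of the ADAM family, lies 90.1 kb away and rose from 29 and 35 to 123 and 122 counts (1.88, SE 0.24). The annotation of *Adam22* overlaps those of *AC156022.1* and *SNORA48*. *Dbf4*, the activator of the CDC7 kinase, fell by 0.72 on the log2 scale (SE 0.06) at 415 kb. Of the 5 tested neighbours of *Steap4*, 1 thus rose and 4 fell. *Gm15459*, *Sri* and *Dbf4* were named after their values were seen.

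Beside *Steap2*, *A330021E22Rik* lies only 0.591 kb downstream on the same strand and was higher too, with 704 and 636 counts in KO against 328 and 335 in WT (log2 fold change 0.96, SE 0.11, edgeR adjusted p = 4.36e-06). It was named after its value was seen. The annotations of the pair do not overlap. *Steap3* has *Tmem37* 117 kb away, a gene that fell from 145 and 129 counts to 18 and 5 (-3.62, SE 0.33). The nearest gene, *3110009E18Rik* at 2.57 kb, also named after its value was seen, had 94 and 71 counts in KO and 101 and 77 in WT and did not pass (edgeR adjusted p = 0.525).

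**Figure D5:**
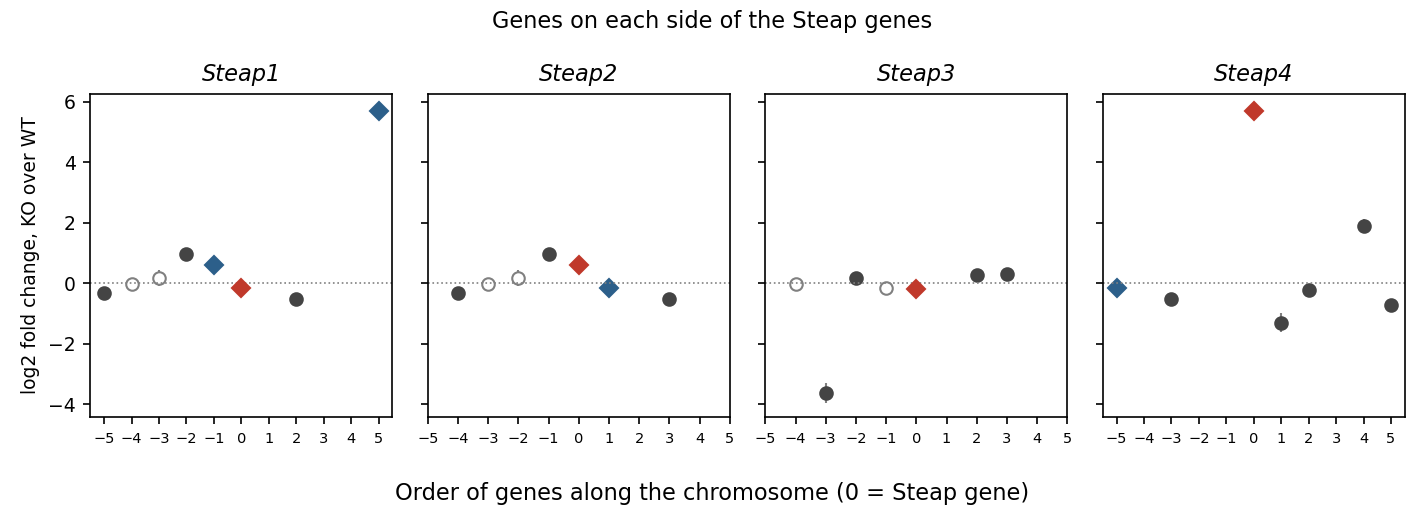
Log2 fold change (KO over WT, bars SE) of tested genes near each Steap gene, up to 5 to its left and 5 to its right, in order along the chromosome. The Steap gene of the panel is a red diamond and other Steap genes are blue diamonds, with other genes filled where the adjusted p was under 0.05. *Steap4* stands at 5.68 among neighbours between -1.30 and 1.88.

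The genes most like each member were found by the Euclidean distance between log2 CPM values, each centred on its own mean over the 4 libraries. With 4 libraries this is a description only. Nearest to *Steap4* was *Fras1*, an extracellular matrix protein of epithelial basement membranes, at a distance of 0.0946. It had 9790 and 9828 counts in KO and 186 and 197 in WT (log2 fold change 5.63, SE 0.10). *Kcnma1*, the large-conductance calcium-activated potassium channel, followed at 0.135 (3471 and 3166 against 64 and 62 counts, log2 fold change 5.67, SE 0.10). *Wscd1* came next at 0.201, with 110 and 102 counts in KO and 0 in both WT libraries. This makes it at least 68.3-fold higher against a floor of 3 counts over the WT group, a bound that covers counting error only. With 0 counts in WT, its distance is set by the prior count of 2 used for log2 CPM. Its likeness to *Steap4* therefore cannot be read from the distance. The fitted log2 fold change of *Wscd1*, 9.71 (SE 0.67), rests on the same 0 counts.

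*Steap2* was nearest to *Ctps2*, a CTP synthase (0.00970), *Zfp157* (0.0203) and *Insig1*, a regulator of sterol synthesis (0.0275), which had log2 fold changes of 0.60, 0.60 and 0.58. *Steap1* was nearest to *Acbd3* (0.00547), *Tpr* (0.0118) and *Ndufb5* (0.0139), and *Steap3* to *Cited2* (0.0119), *Akt1s1* (0.0139) and *Xpnpep3* (0.0202). Within the family *Steap1* and *Steap3* were closest to one another (0.255), *Steap2* stood at 0.745 and 0.824 from them, and *Steap4* at 5.06 to 5.84 from all others. *Acbd3*, *Tpr*, *Ndufb5*, *Ctps2*, *Akt1s1* and *Xpnpep3* overlap other annotated genes.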

How the data were processed

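Base calls were made with CASAVA 1.8.2, and the authors mapped single-end reads to mm9 with TopHat2 and Bowtie and counted them per Ensembl gene with HTSeq 0.5.4p3, according to the methods and to the submitters' processing notes. The deposited table holds these raw counts for 4 libraries, and 5 further columns of per-sample values were not used. The columns left unused include the normalized counts and the authors' own comparison, with log2 ratios and p-values. The methylation data of the study were not analysed here.

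Counts were tested in R 4.3.3 with edgeR 4.0.16, using filterByExpr, TMM scaling, a model of genotype alone and the quasi-likelihood test. P-values were adjusted by Benjamini-Hochberg over 15538 genes, at a threshold of 0.05. RPKM were computed from TMM-scaled counts and the union of exons of each gene. In data simulated with 200 changed genes among 15203 for the same comparison, the test found 56 of 68 at a log2 fold of 1. It found 65 of 66 at 2, all 66 at 3, and made 8 false calls. The simulation left out genes with few counts and changed a far smaller share of genes than the 66.8% that passed here. Its smallest change also exceeds those of the tested Steap genes, so it does not show how reliable their calls are. Replicates differed by more than sampling noise (chi-square 12.2 per gene in WT, 5.95 in KO). Positions and promoters come from the mm9 genome and its annotation, which holds 23393 of the 23537 genes. Python 3.11.15 with scipy 1.17.1 was used for the exact test.

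The members and lists were chosen with earlier results of these data known. Named were the members, up to 3 genes per direction and list with the largest change past the test and a mean of at least 1 CPM, the most abundant gene of each list, neighbours with an absolute log2 fold change above 1, and the 3 nearest patterns of each member; genes outside this rule are marked in the text as named after their values were seen. Alternatives were other scalings and filters, DESeq2 1.42.0, limma-voom (limma 3.58.1), the replicate number as a block, each library left out, and stricter limits (adjusted p 0.01, absolute log2 fold change 2).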

Additional observations from a re-analysis of the deposited data

How the results depend on the processing

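Over 12 other fits, *Steap2* ranged from 0.52 to 0.75 and *Steap4* from 5.55 to 5.83 (log2 fold change). *Steap1* ranged from -0.20 to 0.0039, turning direction with library totals (adjusted p = 0.969), and *Steap3* from -0.29 to -0.03. Leaving out each library in turn gave -0.20 to -0.10 for *Steap1*, which passed without WT replicate 1, and -0.29 to -0.10 for *Steap3*, which passed without WT replicate 2. The same left 8585 to 10625 genes past the test in the whole table. *Steap2* (0.60) missed the stricter threshold of 0.01 and 2, under which 1389 genes passed (900 higher and 489 lower) in place of 10380, and 13 of the genes of the 7 lists (7 higher and 6 lower) in place of 82. Library totals moved the median of all genes from 0.024 to 0.17 and the share of higher among called genes from 51.4% to 62.6%. They also turned the median of the ferric reductase list to 0.075 and of the copper list to 0.079. Without the filter on low counts the median of the cytokine list was 0.0073, and with RLE size factors or DESeq2 that of the haem list was -0.0051.

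With the length of the longest transcript, *Steap4* made up 41.1% of the family's sum in KO and 1.52% in WT, and *Steap2* 29.4% and 36.7%. With the replicate block the log2 fold changes were -0.14 for *Steap1* (adjusted p = 0.154), 0.60 for *Steap2*, -0.18 for *Steap3* (adjusted p = 0.113) and 5.68 for *Steap4*, and 10298 genes passed. The KO and WT libraries that share a number did not deviate together (correlation -0.029). This single correlation gave no sign of pairing, but it cannot tell whether same-numbered samples were grown or prepared together. With 2 libraries a genotype, the intervals of *Steap1* and *Steap3* still reach folds of 0.804 and 0.767.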
